A study of Homo sapiens with 12 samples.

Results

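Among the 6 hypoxic RNA-seq libraries of this melanoma series, 3 stood apart from the other 3 by high counts of DBP, TXNIP, SAT1 and MT-RNR2, the values they were chosen by. They were replicate 2 of A2058, replicate 1 of A375 and replicate 1 of SKMEL-5, and they are called DBP-high here. Each was set against the other hypoxic library of its own line, called DBP-low: replicate 1 of A2058, replicate 2 of A375 and replicate 2 of SKMEL-5. The 3 DBP-high and 3 DBP-low libraries came from 12 in the whole series, the other 6 being normoxic. Because the libraries were selected on their own counts of these 4 genes, all differences between DBP-high and DBP-low are given as a description with no test.

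The lines are established human melanoma lines, described in the labels as metastatic. DBP-high and DBP-low cells were both grown in 1% oxygen (hypoxia), and normoxic cells in atmospheric oxygen. Each line had 2 libraries per condition, which the series' design text calls biological duplicates, and the labels name no genetic change, drug or time in hypoxia. No label sets the duplicates of a condition apart other than by number, so the 2 states and any difference in culture, harvest or library preparation cannot be told apart.

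The 4 genes have known roles. DBP is a bZIP transcription factor whose transcription follows the circadian clock, driven by CLOCK and BMAL1 at E-box sites and repressed by the PER and CRY proteins. TXNIP binds thioredoxin and restrains glucose uptake; its gene is a target of the glucose-sensing factors MondoA and ChREBP, which bind a carbohydrate response element as partners of MLX. SAT1 acetylates spermidine and spermine and so leads polyamines to breakdown and export, while MT-RNR2 is the large ribosomal RNA of the mitochondrion. Cells in low oxygen stabilise hypoxia-inducible factor (HIF), which raises glycolytic enzymes, and the integrated stress response, acting through ATF4, raises amino acid transporters and biosynthetic enzymes.

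The sequences below are from 3 of the genes named in the results, 2 higher in DBP-high libraries (TXNIP, PER1) and 1 lower (CHAC1), and show the letters through which the pathways just named are known to act. Each is the 250 bases before the RefSeq start site, 5′ to 3′ on the gene's strand (GRCh38.p14: TXNIP chr1:145996580-145996829, minus strand; PER1 chr17:8152405-8152654, minus; CHAC1 chr15:40953221-40953470, plus).
TXNIP: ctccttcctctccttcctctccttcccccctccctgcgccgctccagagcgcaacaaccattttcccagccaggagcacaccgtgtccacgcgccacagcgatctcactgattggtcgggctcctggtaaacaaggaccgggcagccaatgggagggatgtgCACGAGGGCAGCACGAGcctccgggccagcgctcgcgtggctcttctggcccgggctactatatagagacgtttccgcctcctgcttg
PER1: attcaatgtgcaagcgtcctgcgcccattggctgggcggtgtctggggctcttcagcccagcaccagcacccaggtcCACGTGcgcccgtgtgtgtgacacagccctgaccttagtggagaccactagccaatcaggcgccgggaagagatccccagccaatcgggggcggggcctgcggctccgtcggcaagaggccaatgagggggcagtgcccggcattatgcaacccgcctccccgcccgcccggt
CHAC1: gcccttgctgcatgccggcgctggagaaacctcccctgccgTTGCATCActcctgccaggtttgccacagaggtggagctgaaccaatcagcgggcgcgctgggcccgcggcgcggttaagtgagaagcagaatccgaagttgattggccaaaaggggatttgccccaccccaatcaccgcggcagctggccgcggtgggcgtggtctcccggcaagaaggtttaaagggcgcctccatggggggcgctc
Capitals in the TXNIP sequence mark a paired E-box-like match, CACGNG and CACGNG with a gap of 5 bases, the form of a carbohydrate response element. In PER1 they mark the E-box CACGTG, and in CHAC1 a match to TGATGNAA on the other strand, the form of the C/EBP-ATF element that ATF4 binds. Both strands were searched. Of 11520 tested protein-coding genes with a RefSeq promoter of this length, 13 (0.113%) held the carbohydrate response form, 998 (8.66%) the E-box and 172 (1.49%) the C/EBP-ATF form. These matches describe letters and not binding. Promoters were matched for fewer than 80% of the genes that differed between the states, so shares among those genes are not compared.

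Library totals ran from 33831569 to 54202819 counts in the 12 libraries, so that a count of 0 allows up to 0.0553 to 0.0887 CPM by counting error alone (3 counts of the total). The A375 and SKMEL-5 libraries resembled each other more than either line's own DBP-high and DBP-low libraries did. Across 19636 genes the Pearson correlation of log2 CPM was 0.977 between the DBP-high libraries of A375 and SKMEL-5 and 0.990 between their DBP-low libraries, against 0.927 between the DBP-high and DBP-low library within A375 and 0.951 within SKMEL-5. In all 4 matched libraries (DBP-high, DBP-low, normoxic 1, normoxic 2), 2 genes, GAGE2A and TSSC2, were at least 4-fold apart between A375 and SKMEL-5 in 1 direction, compared with 870 between A2058 and A375. These are genes chosen after their values were seen, and GAGE2A belongs to a family of near-identical copies. The melanocyte markers TYR and MLANA were at 0 counts in every A375 and SKMEL-5 library, and MITF ran from 17.2 to 28.3 CPM in A375 and from 91.3 to 173 CPM in SKMEL-5. SOX10, which marks the melanocyte lineage, ran from 765 to 1684 CPM in all 12 libraries. Whether the A375 and SKMEL-5 libraries are separate lines was not tested, so the 3 lines may stand for fewer than 3 independent pairs; counts with those lines averaged to 1 pair are given with the processing alternatives. A2058 normoxic replicate 1 also stood apart, with 20.1% of its counts on mitochondrial genes against 2.79% to 7.64% in the other 5 normoxic libraries.

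The 4 genes that define the split were higher in the DBP-high library of every line. Throughout, levels are CPM (library-scaled counts, TMM scaling), sets of 3 values follow the order A2058, A375, SKMEL-5, and differences are DBP-high minus DBP-low in log2 CPM with the SD over 3 lines. DBP (chr19:48630030-48637438, minus strand, GRCh38) had 157, 348 and 129 CPM in DBP-high libraries, against 16.1, 7.32 and 11.2 CPM in DBP-low and 4.57 to 27.0 CPM in normoxic libraries. The mean difference was 4.12 ± 1.25, and all DBP-high values lay above all others. TXNIP (chr1:145992435-145996600, minus) had 332, 891 and 1571 CPM in DBP-high libraries, against 89.6, 53.2 and 82.0 CPM in DBP-low and 5.07 to 62.0 CPM in normoxic libraries, a mean difference of 3.40 ± 1.32. Unlike DBP, it was also above the normoxic libraries of its own line in each DBP-low library. SAT1 (chrX:23783173-23786226, plus) had 353, 398 and 202 CPM in DBP-high libraries, against 64.6, 10.04 and 16.1 CPM in DBP-low and 14.6 to 150 CPM in normoxic libraries, a mean difference of 3.80 ± 1.43. In DBP-low libraries SAT1 was below both normoxic libraries of each line.

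MT-RNR2 (chrM:1671-3229) stood differently against normoxia in A2058. It had 4305, 21319 and 14840 CPM in DBP-high libraries, against 1719, 549 and 1310 CPM in DBP-low libraries. The normoxic libraries held 28092 and 10125 CPM in A2058, 2250 and 2377 in A375, and 5015 and 2373 in SKMEL-5. So the DBP-high value lay above both normoxic libraries in A375 and SKMEL-5 and below both in A2058, and the mean difference of 3.37 ± 1.98 between the states had the largest spread of the 4 genes. Nuclear copies of mitochondrial sequence exist, and how shared reads were counted is not given in the sources used here.

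**Figure D1:**
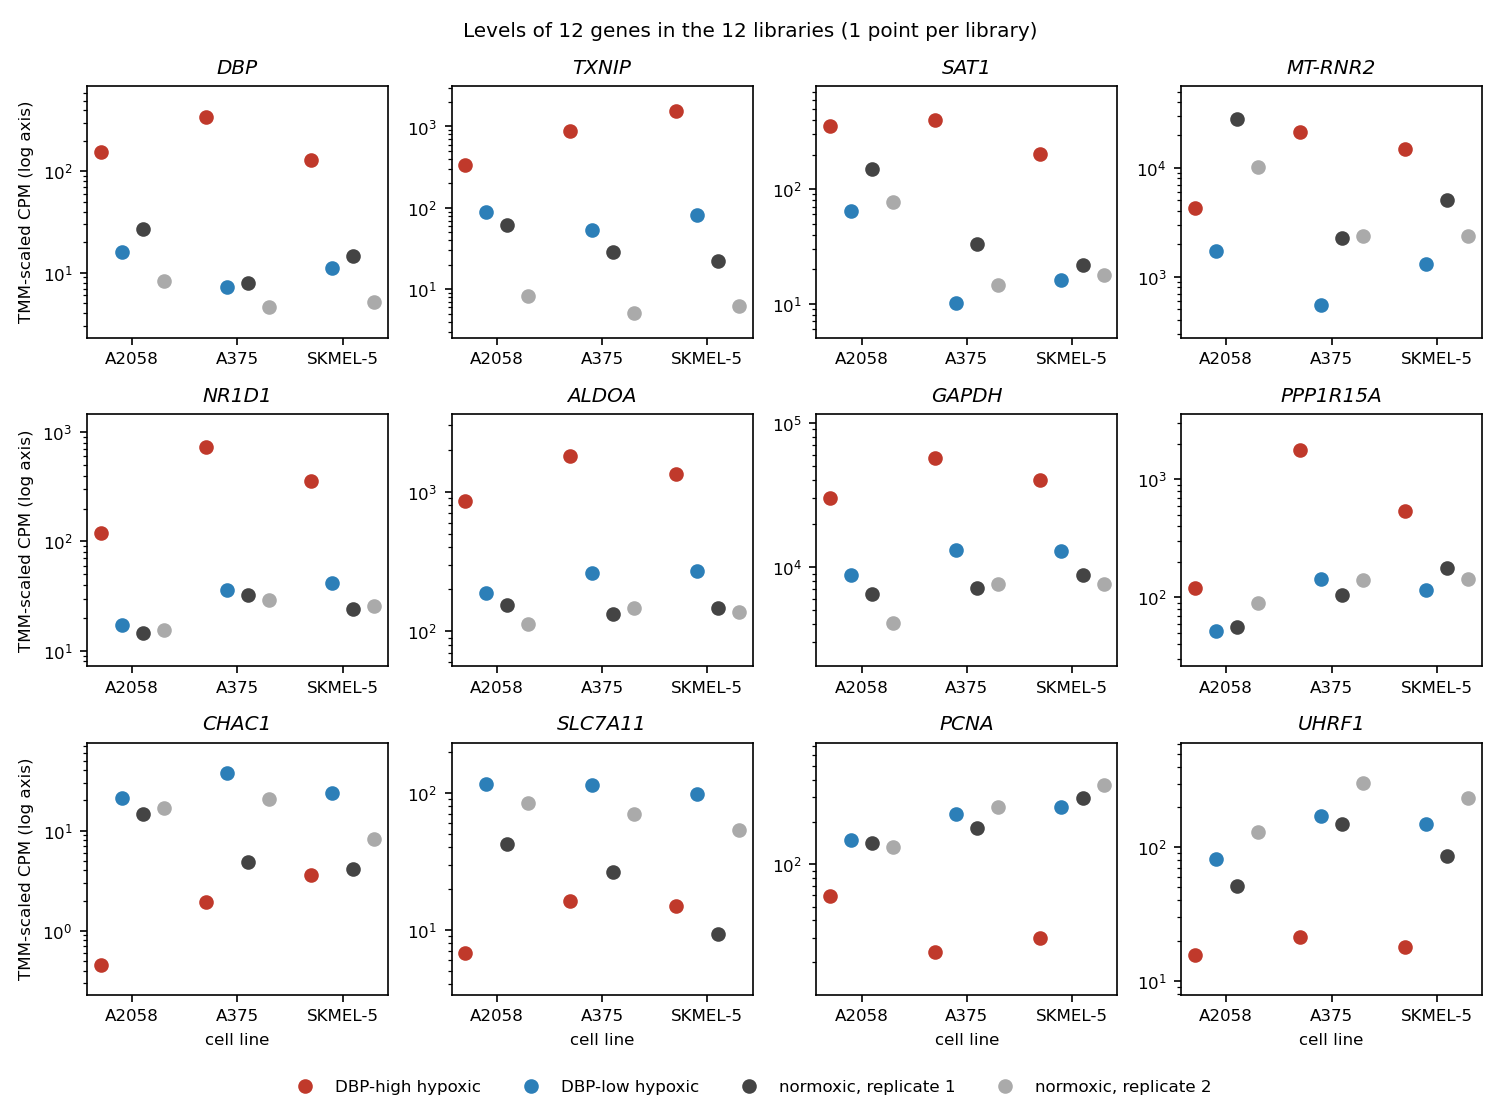
TMM-scaled CPM (log axis) of 12 genes, 1 point per library, by cell line, with DBP-high hypoxic libraries in red, DBP-low in blue and the normoxic replicates in dark and light grey. The red points of DBP, NR1D1 and ALDOA lie above every other library of their line, those of CHAC1 and UHRF1 below, and the red MT-RNR2 point of A2058 (4305 CPM) lies below both normoxic libraries.

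Over all 19636 tested genes, 729 were at least 2-fold higher in the DBP-high library in all 3 lines (3.71%) and 972 at least 2-fold lower (4.95%), together 8.66%. A 4-fold bar left 77 higher and 140 lower. A375 showed the most genes past 2-fold, 3773 higher and 4452 lower, ahead of SKMEL-5 with 2773 and 3356 and A2058 with 2112 and 2925. Another 1338 genes were higher and 1438 lower in A375 and SKMEL-5 while within 2-fold in A2058. The differences correlated across genes with r = 0.797 between A375 and SKMEL-5, while A2058 had r = 0.469 with A375 and 0.409 with SKMEL-5; genes are not independent replicates. Of the genes that differed in all 3 lines, 220 of the 729 higher and 385 of the 972 lower averaged under 1 CPM over the hypoxic libraries.

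The DBP-high libraries were the ones that lay away from normoxia in these genes. Of the 729 higher genes, 594 (81.5%) were above both normoxic libraries of the line in the DBP-high library of all 3 lines, against 17.3% of all tested genes. In the DBP-low libraries 73 of them (10%) were above both, against 11.5% of all tested genes, and 64 (8.78%) below both, against 7.25%. For the 972 lower genes, 770 (79.2%) were below both normoxic libraries in DBP-high, against 17.8% of all tested genes. In DBP-low 42 of them (4.32%) were below both and 132 (13.6%) above both. The median difference from normoxia of the higher genes was 1.88 in DBP-high and -0.02 in DBP-low, and that of the lower genes was -1.85 in DBP-high and 0.09 in DBP-low. Both hypoxic groups are set against the same normoxic libraries, and the genes were chosen for the contrast between them.

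Of the 15 protein-coding genes that led the higher side by their smallest difference over the lines, MAST1, a microtubule-associated kinase, came first. It had 92.8, 75.0 and 80.6 CPM in DBP-high libraries, against 7.24, 1.14 and 2.96 CPM in DBP-low and 0.663 to 21.2 CPM in normoxic libraries. NR1D1, the clock repressor REV-ERB alpha, had 120, 728 and 356 CPM in DBP-high, against 17.1, 36.2 and 41.3 CPM in DBP-low and 14.4 to 32.6 CPM in normoxic libraries. For both, no DBP-high library overlapped any other. RAB3A, a GTPase of vesicle exocytosis, differed by a similar amount in each line, with a mean difference of 2.58 ± 0.21. The prostaglandin synthase PTGS1 did likewise at 2.42 ± 0.20. ZNF467, a zinc finger protein, spread most of the 15, from 2.24 in A2058 to 5.29 in A375. BAIAP3, a protein of dense-core vesicle traffic, the adhesion molecule ICAM5, the ceramide synthase CERS1 and the synaptic scaffold DLG4 completed the group outside the lists below, with mean differences of 2.39 to 3.14.

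On the lower side CHST2, which sulfates N-acetylglucosamine on glycans, led the 15. It had 1.98, 0.781 and 1.69 CPM in DBP-high libraries, against 18.2, 23.9 and 20.02 CPM in DBP-low and 9.95 to 40.7 CPM in normoxic libraries. PPP1R10, a nuclear targeting subunit of protein phosphatase 1, had 16.8, 4.57 and 8.56 CPM in DBP-high, against 99.6, 83.5 and 71.1 CPM in DBP-low and 71.4 to 131 CPM in normoxic libraries. Each stood below every DBP-low and normoxic library. The receptors TLR4 and IL7R had mean differences of -2.96 ± 0.63 and -3.54 ± 0.99. MMP1, an interstitial collagenase, was abundant in A2058 alone. It had 186, 0.271 and 0.191 CPM in DBP-high libraries, against 1045, 3.50 and 3.59 CPM in DBP-low libraries. CEMIP, which takes part in hyaluronan breakdown, had 44.3, 35.1 and 34.4 CPM in DBP-high, against 237, 771 and 503 CPM in DBP-low libraries. FAM111B, a protease gene, and LCMT2, a tRNA-modifying enzyme, had mean differences of -3.62 and -3.66.

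**Figure D2:**
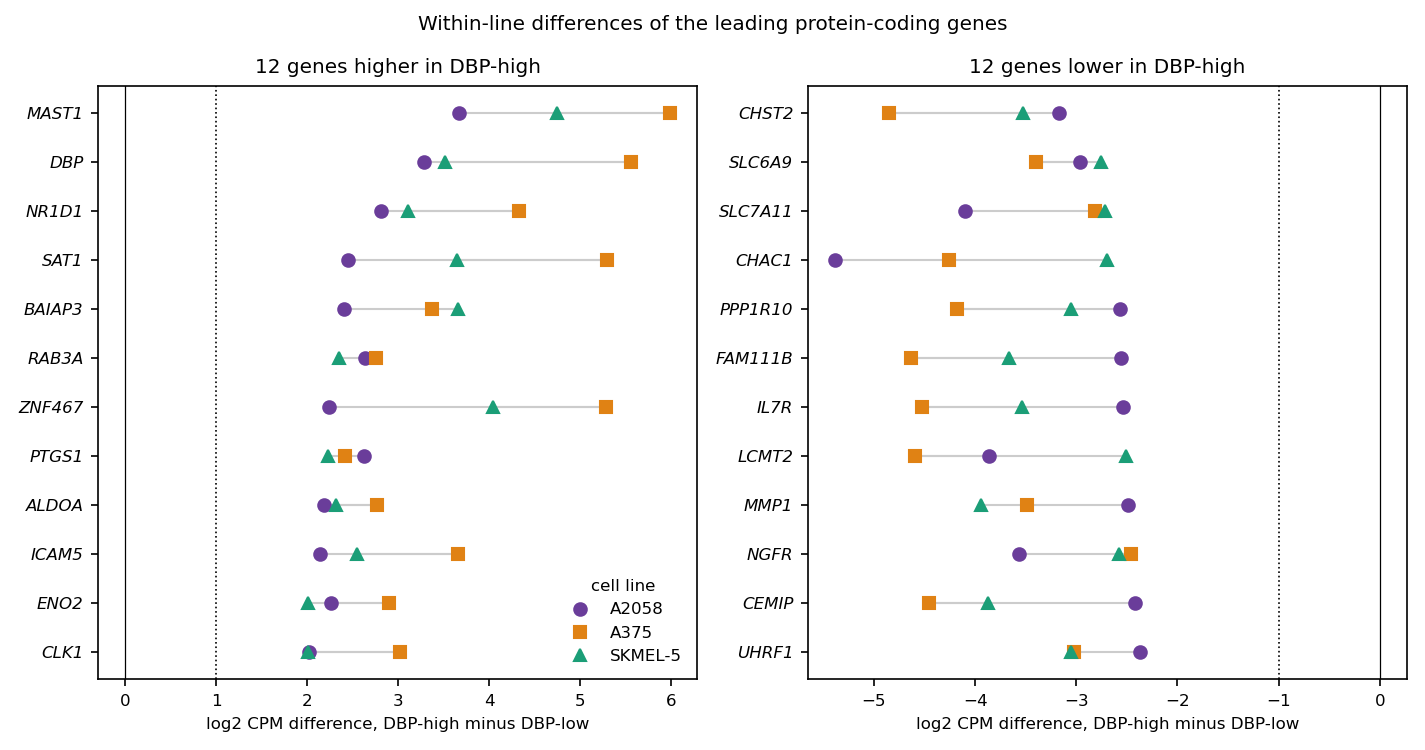
Log2 CPM difference, DBP-high minus DBP-low, of the 12 leading higher genes (left) and 12 leading lower genes (right), 1 marker per cell line, with the dotted line at 2-fold. All markers lie past the dotted line, as the choice of genes requires; A375 is the farthest from 0 for MAST1 and CHST2 and A2058 for CHAC1 and SLC7A11.

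Genes of the circadian clock and its output were higher as a list, with the core activators as an exception. Of 18 tested genes, 6 were at least 2-fold higher in all 3 lines (33.3%, against 3.71% of all tested genes) and 0 lower. The list median was 1.54, against -0.08 over all tested genes. Without DBP, which defined the split, 5 of 17 were higher and the median was 1.49. The 6 were DBP, its relative TEF, NR1D1, the repressors PER1 and CRY2, and BHLHE40, which is also a HIF target. PER1 had 139, 602 and 194 CPM in DBP-high libraries, against 35.1, 37.6 and 39.5 CPM in DBP-low and 26.0 to 36.4 CPM in normoxic libraries. PER1 was nearly level between DBP-low and normoxic libraries, and its DBP-high values overlapped with none of them. PER3 differed by 0.52 in A2058 and by 3.56 and 3.17 in A375 and SKMEL-5. CLOCK and BMAL1, the activators, had differences of -0.98, -1.60 and -0.94 and of -0.98, -0.93 and -0.71.

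Around TXNIP, 1 of 12 glucose-sensing and thioredoxin genes was 2-fold higher in every line, and 0 were lower; that gene was TXNIP itself, which was used to define the split. Its relative ARRDC4, another target of the MondoA and ChREBP pair, had differences of 0.89, 1.90 and 2.18. MLXIPL, which encodes ChREBP, had -0.76 in A2058 and 3.95 and 3.50 in A375 and SKMEL-5. The thioredoxin reductase TXNRD1 had 0.12, -1.18 and -0.80. In polyamine metabolism SAT1, also used to define the split, was the 1 of 12 genes higher in all lines, and 0 were lower. Its paralog SAT2 had differences of 0.56, 3.10 and 2.14, and the synthesis enzymes AMD1 and SRM had differences between -0.22 and -0.86 in the 3 lines.

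Beside MT-RNR2, which was used to define the split, the other mitochondrial ribosomal RNA was 2-fold higher in every line. So was 1 of 13 mitochondrial messenger RNAs (7.69%, against 3.71% of all tested genes). MT-RNR1, the small ribosomal RNA, had 666, 1730 and 1227 CPM in DBP-high libraries, against 317, 154 and 325 CPM in DBP-low libraries and 435 to 3511 CPM in normoxic libraries. The messenger RNA past 2-fold was MT-ND4, with 2383, 5963 and 4622 CPM in DBP-high, against 1186, 931 and 2062 CPM in DBP-low and 3701 to 26561 CPM in normoxic libraries. MT-ND4 was thus higher in DBP-high than in DBP-low while all 6 normoxic libraries lay within or above the DBP-high range. MT-ND6, the messenger read from the other strand of the mitochondrial genome, had differences of -0.26, -1.69 and -1.34. It was not the only lower messenger, since 2 of the 13 lay below 0 in all 3 lines and 6 above 0. By line the median of the 13 was 0.56, 0.52 and -0.04. At least 2-fold lower were 3 of them in SKMEL-5, where 1 was at least 2-fold higher. Without a stated strand setting, reads of MT-ND6 cannot be told apart from those of the opposite strand. Relative to normoxia, the median of the 13 messengers was -2.05 in DBP-high and -2.5 in DBP-low. MT-RNR1, the ribosomal RNA that did not define the split, had 0.28 ± 1.92 in DBP-high and -1.87 ± 0.94 in DBP-low. Its DBP-high value lay above both normoxic libraries in A375 and SKMEL-5. In A2058 it lay below both (666 CPM, against 1636 and 3511 CPM). Of 20 genes of mitochondrial RNA processing and decay, 0 were higher and 2 lower (10%, against 4.95% of all tested genes). They were TRMT10C, a subunit of mitochondrial RNase P, at -1.86 ± 0.49, and the termination factor MTERF1 at -1.505 ± 0.27. The 30 nuclear respiratory chain genes had 0 higher, 0 lower and a median of 0.07, or -0.20 with CPM of the library total. By line their median was 0.62, 0.09 and -0.31, with 27 of 30 above 0 in A2058 and 21 below 0 in SKMEL-5.

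These libraries differed in make-up as well. Mitochondrial ribosomal RNA took 0.414%, 1.82% and 1.56% of counts in DBP-high libraries, against 0.217%, 0.0707% and 0.168% in DBP-low and 0.299% to 3.10% in normoxic libraries. This share includes MT-RNR2, which defined the split, so its difference between the states follows in part from the choice of libraries. The nuclear RNAs MALAT1 and NEAT1 together took 0.0303%, 0.272% and 0.0635% in DBP-high, against 0.0185%, 0.0152% and 0.0268% in DBP-low. The 10 most abundant genes took 8.57%, 12.5% and 10.9% of counts in DBP-high libraries, against 5.35%, 5.84% and 5.84% in DBP-low, and fewer genes reached 10 counts (15890, 16325 and 16954 against 16769, 16850 and 17856). A bar of 10 raw counts depends on the library total, which was also lower in DBP-high (41766281, 42176286 and 43212823 against 44522900, 43784449 and 54202819). The part of the total in the number of genes was not tested. TMM factors were 0.833, 0.789 and 0.971 in DBP-high and 1.07, 1.01 and 1.03 in DBP-low. With CPM of the library total the median of all genes was -0.32, so that counts of higher and lower genes depended on scaling (412 higher and 1471 lower). With protein-coding genes cut into 5 equal bins, the bin of highest transcript GC had a median difference of 0.18 and that of lowest GC -0.24; by transcript length the shortest bin had 0.06 and the longest -0.24. The part of RNA quality or library make-up in the results was not tested.

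Glycolysis and HIF targets were high in both hypoxic states, with some members higher still in DBP-high. Of 17 glycolysis genes, 4 were 2-fold higher in every line (23.5%, against 3.71% of all tested genes) and 0 lower, with a median of 0.56. ALDOA, an aldolase, had 851, 1791 and 1345 CPM in DBP-high libraries, against 188, 262 and 271 CPM in DBP-low and 112 to 154 CPM in normoxic libraries. GAPDH had 29974, 57225 and 40276 CPM in DBP-high, against 8846, 13124 and 12872 CPM in DBP-low and 4089 to 8805 CPM in normoxic libraries. In both genes the DBP-low libraries lay between normoxia and DBP-high in each line; GAPDH has many processed pseudogenes that may share its reads. ENO2 and ALDOC, isoforms of enolase and aldolase, had mean differences of 2.39 ± 0.46 and 1.93 ± 0.37. PGAM1, PKM, PGK1 and HK1 in contrast lay above 0 in A2058 and below 0 in A375 and SKMEL-5.

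Of 30 HIF target genes 3 were 2-fold higher in every line (10%, against 3.71% of all tested genes) and 0 lower. NDRG1 had 4332, 2246 and 1997 CPM in DBP-high libraries, against 1235, 743 and 905 CPM in DBP-low and 41.3 to 273 CPM in normoxic libraries. P4HA1, a collagen prolyl hydroxylase subunit, differed by 1.34 ± 0.32 and BHLHE40 by 1.71 ± 0.83. CA9, the carbonic anhydrase widely used as a hypoxia marker, had 725, 593 and 352 CPM in DBP-high libraries, against 363, 689 and 667 CPM in DBP-low and 0.0826 to 19.0 CPM in normoxic libraries. All 6 hypoxic libraries thus stood above all normoxic ones for NDRG1 and CA9, while CA9 had no common direction between the states. By line the HIF list median was 0.99, 0.13 and -0.17. Without the A2058 pair it was -0.07, against 0.30 with all 3 pairs. Against normoxia the list median was 2.15 in DBP-high and 1.74 in DBP-low.

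DNA replication genes were lower in DBP-high libraries. Of 39 genes of replication and S phase, 13 were 2-fold lower in every line (33.3%, against 4.95% of all tested genes) and 0 higher. Of the 39, 31 lay below 0 in all 3 lines, and the median was -1.71. The cyclin CCNE2 had 8.08, 1.503 and 2.10 CPM in DBP-high, against 34.9, 29.4 and 24.2 CPM in DBP-low and 10.7 to 39.5 CPM in normoxic libraries. PCNA, the sliding clamp of DNA polymerase, had 58.9, 23.5 and 30.0 CPM in DBP-high, against 150, 227 and 258 CPM in DBP-low and 134 to 368 CPM in normoxic libraries. Neither gene's DBP-high values overlapped with DBP-low or normoxia. UHRF1, which maintains DNA methylation behind the fork, differed by -2.82 ± 0.39, MCM10 by -3.15 ± 1.59 and the transcription factor E2F2 by -3.20 ± 1.88. CDT1, the licensing factor that cells degrade in S phase, went the other way, with 140, 367 and 248 CPM in DBP-high, against 81.1, 91.7 and 95.5 CPM in DBP-low libraries. By line the median was -0.65, -1.87 and -2.06. In bulk RNA, fewer cells in S phase and less of these RNAs per cell cannot be told apart.

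Mitotic genes had no member past 2-fold in all 3 lines. Their median by line was 0.68, -0.23 and -1.03, with 24 of 26 above 0 in A2058 and all 26 below 0 in SKMEL-5. MKI67, the proliferation antigen, had 456, 484 and 257 CPM in DBP-high libraries, against 347, 602 and 643 CPM in DBP-low libraries. Among 24 cell cycle inhibitors and quiescence genes, 3 were higher (GADD45B, GADD45A and BTG1) and 1 lower (RBL1, a pocket protein related to RB). The shares were 12.5% higher and 4.17% lower, against 3.71% and 4.95% of all tested genes. GADD45A, a stress-induced growth arrest gene, had 33.1, 204 and 114 CPM in DBP-high, against 11.7, 41.7 and 37.4 CPM in DBP-low and 15.9 to 67.9 CPM in normoxic libraries. The antiproliferative gene BTG1 differed by 1.46 ± 0.27. CDKN1B, which encodes the inhibitor p27, had differences of 1.96, 1.52 and 0.77.

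Genes of the integrated stress response stood on both sides. Of 28 genes, 5 were lower in every line (17.9%, against 4.95% of all tested genes) and 1 higher (3.57%, against 3.71%), with a median of -0.65. CHAC1, which degrades glutathione and is an ATF4 target, had 0.460, 1.92 and 3.60 CPM in DBP-high libraries, against 21.05, 37.6 and 23.6 CPM in DBP-low and 4.12 to 20.8 CPM in normoxic libraries. SLC7A11, the cystine and glutamate exchanger, had 6.73, 16.4 and 15.1 CPM in DBP-high, against 116, 115 and 99.2 CPM in DBP-low and 9.30 to 84.9 CPM in normoxic libraries. DBP-high and DBP-low libraries did not overlap in either gene, and DBP-low libraries lay above both normoxic libraries of their line in both. The others lower were SLC6A9, a glycine transporter, at -3.04 ± 0.33, and the serine synthesis enzymes PSAT1 and PSPH, at -2.92 ± 1.14 and -2.17 ± 0.86. PPP1R15A, the phosphatase subunit that reverses eIF2 alpha phosphorylation, was the 1 higher. It had 119, 1776 and 541 CPM in DBP-high libraries, against 52.2, 143 and 117 CPM in DBP-low and 56.5 to 176 CPM in normoxic libraries. ATF4 itself had differences of -0.30, 2.17 and 1.73, and DDIT3, which encodes CHOP, -0.22, 2.78 and 2.76. So in A375 and SKMEL-5 the messages of ATF4 and DDIT3 were higher in DBP-high while those of CHAC1 and SLC7A11 were lower. In A2058 ATF4 and DDIT3 were within 2-fold, while ATF3, another factor of the list, had -2.19 there and 3.87 and 3.12 in A375 and SKMEL-5. WARS1, PCK2 and VLDLR were 2-fold lower in A375 and SKMEL-5 and within 2-fold in A2058.

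**Figure D3:**
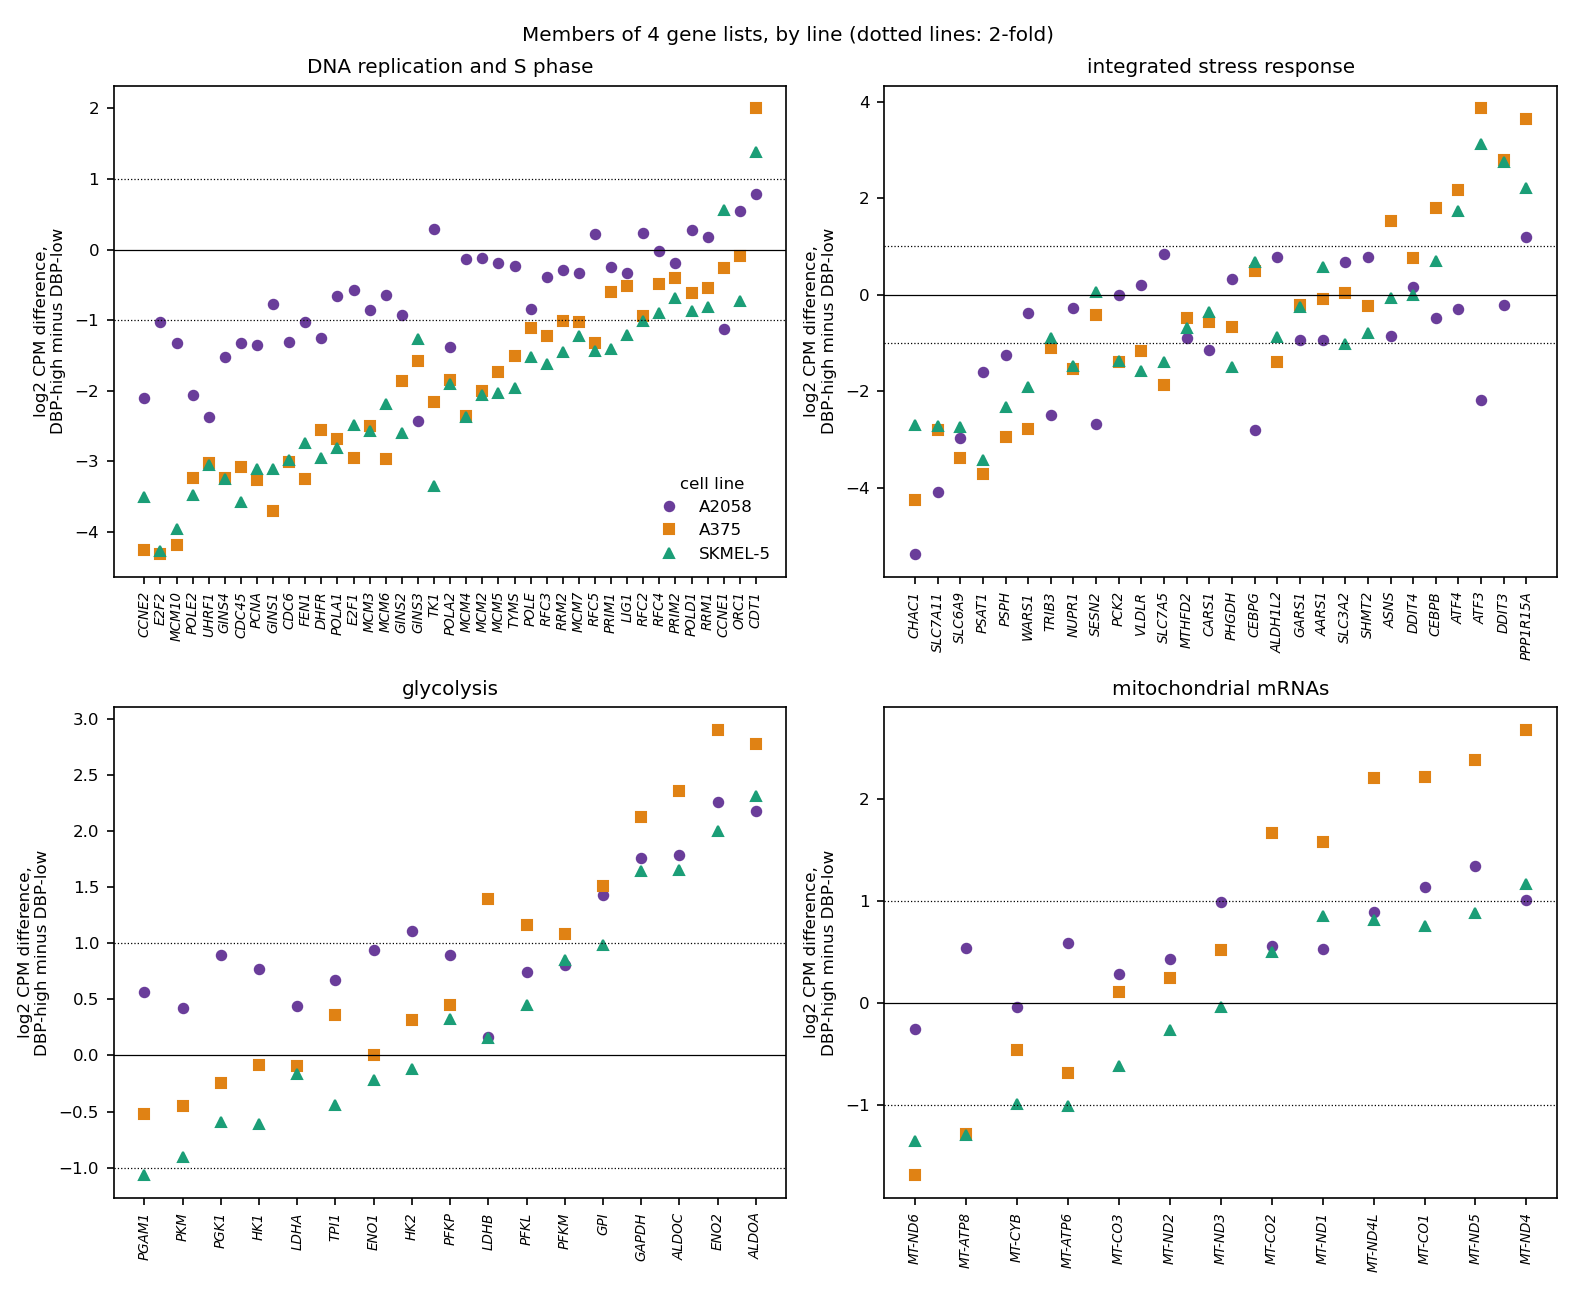
Log2 CPM difference, DBP-high minus DBP-low, of each tested member of 4 gene lists, 1 marker per cell line, ordered by mean difference, with dotted lines at 2-fold. Replication genes lie mostly below 0 in A375 and SKMEL-5 with A2058 nearer 0; the stress response runs from CHAC1 (-5.38 in A2058) to PPP1R15A (3.64 in A375).

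Ribosome-related genes differed by kind. Of 30 ribosome biogenesis genes 0 were higher and 3 lower (10%, against 4.95% of all tested genes). The 3 were POLR1A, the largest subunit of RNA polymerase I, at -2.11 ± 0.60, the small-subunit processome protein UTP20 at -1.69 ± 0.39 and the snoRNP protein NOP58 at -1.43 ± 0.15. Of 35 ribosomal protein genes 0 passed 2-fold in every line in either direction, while all 35 lay above 0 in A2058 and A375 and 25 of them in SKMEL-5, with a median of 0.60, or 0.34 with CPM of the library total. By line the median was 0.75, 0.93 and 0.17. The normoxic duplicates also differed in this list, with medians by line of -0.94, 0.40 and 0.68 when subtracted by the same numbers. Among 18 translation factor genes 2 were higher (11.1%, against 3.71% of all tested genes), the elongation factor EEF2 and the initiation factor EIF4B, and 0 lower. EEF2 had 7613, 12185 and 8406 CPM in DBP-high libraries, against 3716, 4220 and 3876 CPM in DBP-low and 2549 to 3600 CPM in normoxic libraries. Its DBP-low libraries lay just above the normoxic range and its DBP-high libraries clear of both.

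RNAs that carry snoRNAs in their introns were among the highest lists. Of 17 snoRNA host genes 3 were 2-fold higher in every line, EPB41L4A-AS1, ZFAS1 and SNHG6 (17.6%, against 3.71% of all tested genes). In this list 0 were lower, and the median was 1.69. By line the median was 0.72, 2.53 and 1.59, with 15 and 11 of the 17 past 2-fold in A375 and SKMEL-5. EPB41L4A-AS1 had 51.5, 270 and 196 CPM in DBP-high libraries, against 23.0, 30.8 and 32.6 CPM in DBP-low and 12.1 to 42.0 CPM in normoxic libraries. ZFAS1 and SNHG6 had mean differences of 1.69 ± 0.70 and 1.41 ± 0.39. EPB41L4A-AS1 and ZFAS1 are antisense to or overlap other genes, and without a stated strand setting their reads cannot be told apart from those of the partner. GAS5, which carries several snoRNAs, had differences of 0.99, 2.99 and 1.63.

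Of 15 tested replication-dependent histone genes, whose messages mostly lack a poly(A) tail, 2 were higher in every line, H2BC21 and H1-4, and 0 were lower. The 2 are 13.3% of the list, against 3.71% of all tested genes. H2BC21 had 13.2, 272 and 47.9 CPM in DBP-high libraries, against 5.98, 3.50 and 3.09 CPM in DBP-low and 1.61 to 5.13 CPM in normoxic libraries. The 3 DBP-high values do not overlap with the rest, and the A375 value is the highest of the 3. H1-4 had 1.09, 25.0 and 2.36 CPM in DBP-high, against 0.316, 0.341 and 0.521 CPM in DBP-low libraries. Histone medians by line were 0.15, 2.88 and 1.99; histone genes are near-identical copies of each other, so single members are uncertain. MALAT1, a nuclear RNA, also stood out in A375. It had 276, 2690 and 336 CPM in DBP-high libraries, against 102, 91.6 and 140 CPM in DBP-low and 61.3 to 778 CPM in normoxic libraries. MALAT1 was the 1 of 9 nuclear long noncoding RNAs 2-fold higher in every line (11.1%, against 3.71% of all tested genes), with 0 lower. The MT-RNR1, MALAT1 and histone values of the hypoxic libraries were each highest in the A375 DBP-high library, and whether they share a source was not tested.

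Among 28 splicing genes 3 were higher in every line (10.7%) and 1 lower (3.57%), against 3.71% and 4.95% of all tested genes. The 3 were CLK1, CLK3 and CLK4, kinases that phosphorylate SR splicing factors. CLK1 had 112, 168 and 93.9 CPM in DBP-high libraries, against 27.7, 20.6 and 23.4 CPM in DBP-low and 21.4 to 59.9 CPM in normoxic libraries. TRA2B, an SR-like splicing factor, was the 1 lower, with 82.5, 126 and 76.6 CPM in DBP-high, against 205, 269 and 222 CPM in DBP-low and 156 to 299 CPM in normoxic libraries. For both genes the DBP-low values overlapped with normoxia and the DBP-high values did not.

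FOXO and insulin signalling had 3 of 20 genes higher (15%, against 3.71% of all tested genes) and 0 lower, with a median of 0.61. The 3 were the insulin receptor substrate IRS2 at 1.62 ± 0.60, the glucocorticoid-induced leucine zipper gene TSC22D3 at 1.36 ± 0.39 and KLHL24, a ubiquitin ligase adaptor, at 1.34 ± 0.14. IRS2 had 977, 746 and 385 CPM in DBP-high libraries, against 210, 238 and 191 CPM in DBP-low and 157 to 318 CPM in normoxic libraries. Cholesterol synthesis had 2 of 24 genes higher (8.33%, against 3.71% of all tested genes) and 0 lower. They were MSMO1, a sterol oxidase, at 2.01 ± 0.67, and INSIG1, which holds SREBP in the endoplasmic reticulum, at 1.86 ± 0.90. In autophagy and lysosome genes 1 of 29 was higher, GABARAP (3.45%, near the 3.71% of all tested genes), and 0 lower. Of 21 p53 targets 1 was higher, BBC3, which encodes the cell death protein PUMA, at 2.22 ± 0.70, and 1 lower, TIGAR, at -1.69 ± 0.58. Each is 4.76% of the list, near the 3.71% higher and 4.95% lower of all tested genes.

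The remaining lists had few genes past 2-fold in all lines. In 15 cytosolic heat shock genes 1 was lower, HSPH1, at -1.25 ± 0.23 (6.67%, against 4.95% of all tested genes), and 0 higher. In 21 endoplasmic reticulum chaperone genes 0 passed in either direction, with medians by line of -0.13, -0.82 and -0.79; the abundant chaperone CALR had -0.33 ± 0.47. Of 33 interferon-stimulated genes 1 was higher, IRF7, at 2.24 ± 0.76, and 2 lower, SAMD9, at -2.40 ± 0.68, and OASL, whose levels were under 1 CPM in every hypoxic library. The shares, 3.03% higher and 6.06% lower, were near the 3.71% and 4.95% of all tested genes. None passed among 20 MAPK output genes, which had medians by line of -0.71, 0.50 and 0.11 and where PHLDA1 had 0.46 ± 0.44. Among 10 MYC network genes none passed either, and the MYC antagonist MXI1 had 1.20 ± 0.34 with SKMEL-5 at 0.83.

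Melanocytic genes had 0 of 20 past 2-fold in every line, and medians by line of 0.85, -0.45 and 0.07. Members at 0 counts in A375 and SKMEL-5, such as TYR and MLANA, could not pass that rule. In A2058 alone 9 of the 20 were at least 2-fold higher and 0 lower, against 10.8% and 14.9% of all tested genes. In A375 1 was higher and 6 lower, and in SKMEL-5 1 and 2. SOX10 had 1684, 826 and 881 CPM in DBP-high libraries, against 947, 972 and 765 CPM in DBP-low libraries. In the dedifferentiated melanoma list 2 of 20 genes were lower (10%, against 4.95% of all tested genes) and 0 higher. NGFR, a marker of the neural crest-like state, had 3.59, 47.2 and 34.3 CPM in DBP-high, against 43.0, 259 and 205 CPM in DBP-low and 1.23 to 139 CPM in normoxic libraries. THBS1, thrombospondin 1, had 36.1, 234 and 227 CPM in DBP-high, against 187, 977 and 960 CPM in DBP-low and 8.23 to 3108 CPM in normoxic libraries. For these genes the normoxic duplicates themselves lay far apart, with NGFR at 1.23 and 70.0 CPM and THBS1 at 8.23 and 1131 CPM in A2058.

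Markers of other cells were scarce. Fibroblast markers, 9 of 10 tested, took 0.0117%, 0.00119% and 0.00214% of counts in DBP-high libraries, against 0.00955%, 0.00179% and 0.00221% in DBP-low; none passed 2-fold in every line, and COL1A1 had 1.35 ± 0.62. Keratinocyte markers, 4 of 10 tested, took 0.00433%, 0.0143% and 0.0126% in DBP-high, against 0.00597%, 0.00873% and 0.00943% in DBP-low, with 2 lower (KRT14 and SFN) and 0 higher. The 2 are 50% of the 4 tested, against 4.95% of all tested genes. Of 10 blood cell markers 3 were tested, with LYZ at -0.996 ± 0.48, and their summed share was at most 0.00158% in the hypoxic libraries.

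**Figure D4:**
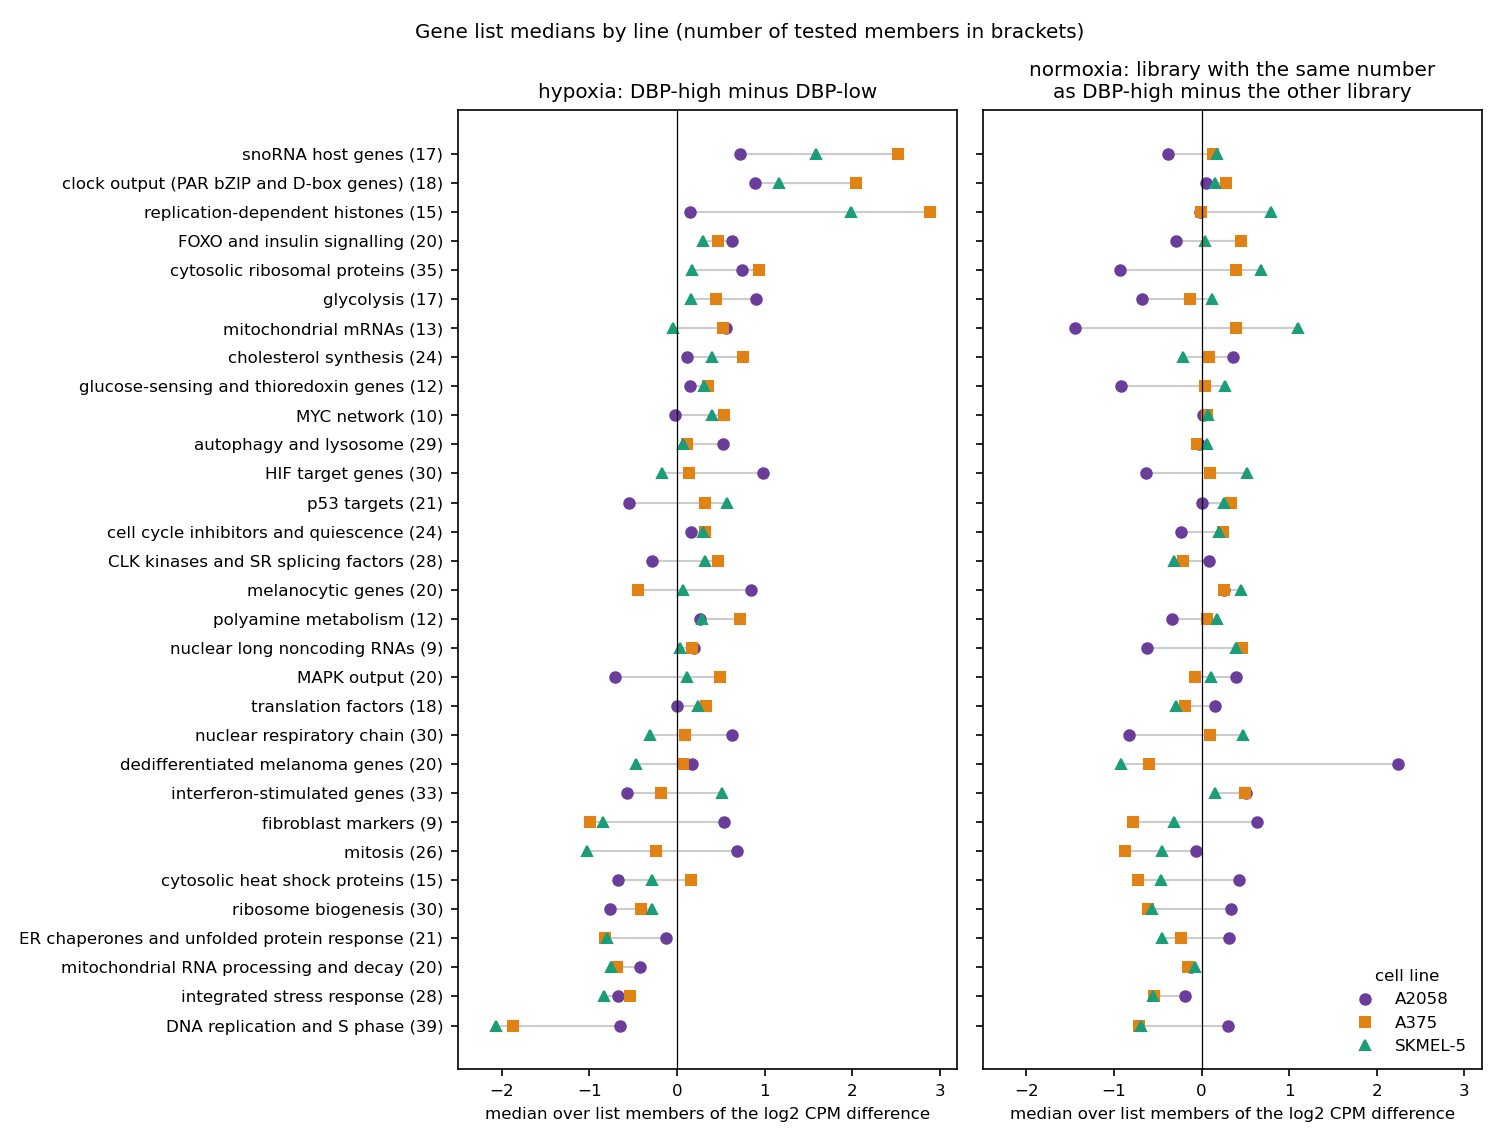
Median log2 CPM difference over the tested members of each gene list, 1 marker per cell line, in hypoxia (DBP-high minus DBP-low, left) and in normoxia (library with the same number as DBP-high minus the other library, right). The lists with fewest tested members (mitochondrial ribosomal RNAs, keratinocyte and blood cell markers) are left out. In hypoxia snoRNA hosts lie at 0.72 to 2.53 and replication genes at -2.06 to -0.65; in normoxia A2058 often lies on the other side of 0 from A375 and SKMEL-5.

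The genes that differed are described here by features that the split had not used. Median levels of the protein-coding genes were 17.6 CPM for higher and 6.68 CPM for lower genes, against 23.6 CPM for all tested genes. Over all gene types, 220 higher and 385 lower genes averaged under 1 CPM in hypoxia. Whether low levels account for the shares below was not tested. Protein-coding genes were 58.8% of the 729 higher and 63.8% of the 972 lower genes, against 73.0% of all tested genes, while long noncoding RNAs were 27.3% of the higher and 27.3% of the lower genes, against 17.5%. Median transcript GC of the protein-coding genes was 55.5% for higher, 47.9% for lower and 48.5% for all tested genes, so that the lower genes lay near all tested genes. Higher genes also had shorter transcripts, with a median of 2947 bases, against 3592 for lower and 3676 for all tested genes. Of the 25 mitochondrial genes tested besides MT-RNR2, 4 were among the higher and 0 among the lower genes, against 3.71% and 4.95% of all tested genes.

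The normoxic libraries, which had no part in the split, allowed a test of the same genes by number. A2058 replicate 2, A375 replicate 1 and SKMEL-5 replicate 1, which carry the numbers of the DBP-high libraries, were compared with the other normoxic library of each line. With edgeR's quasi-likelihood test and line as a term, 0 genes were higher and 0 lower at an adjusted p under 0.05. At an unadjusted p under 0.05 there were 332 higher and 115 lower genes (1.69% and 0.586%), DESeq2 called 34 and 3, and limma-voom called 0 and 0. By the 2-fold rule in all 3 lines, 74 genes were higher (0.377%) and 15 lower (0.0764%). The 4 defining genes had edgeR log2 differences of 0.28 (SE 0.63) for DBP, 0.84 (SE 1.13) for TXNIP, 0.20 (SE 0.42) for SAT1 and -0.12 (SE 0.60) for MT-RNR2, each with an adjusted p of 1. DBP was higher in 2 of 3 lines, by 0.78 in A375 and 1.496 in SKMEL-5, and had -1.69 in A2058. The A2058 pair ran against the others across genes, with r = -0.263 with A375 and -0.466 with SKMEL-5, whereas A375 and SKMEL-5 had r = 0.579. Without the A2058 pair edgeR called 1858 higher and 1274 lower genes, without A375 6 and 1, and without SKMEL-5 22 and 3. The calls without A2058 rest on A375 and SKMEL-5 alone. Whether those are separate lines was not tested, so their pairs may not be independent.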

How the data were processed

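The deposited table holds unnormalized counts of reads per gene in the 12 libraries. Per the labels' protocols an mRNA kit was used on total RNA. Tools listed in the submitters' processing notes are STAR 2.5.0a, Trim Galore 0.6.1 and bcl2fastq 2.20, with the GRCh38 build. How reads were assigned to genes, with or without strand, is not given in the sources used here. Columns were matched to samples by title. Of 60656 Ensembl IDs, 60445 received a symbol with the version ignored, and 58438 were placed by GENCODE 29; RefSeq gave the promoters.

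The members, the 34 gene lists and the comparisons were chosen with earlier results of these data known. In R 4.3.3, edgeR 4.0.16 kept 19636 genes (filterByExpr, 6 groups, minimum count 10, minimum total 15) and scaled libraries by TMM; log2 CPM used a prior count of 2. The difference between the hypoxic states was taken within each line and given with its SD over 3 lines; a gene at least 2-fold different in the same direction in all 3 lines was counted. The 6 normoxic libraries were tested with edgeR's quasi-likelihood test with line as a term (2 residual and 4.93 prior degrees of freedom, common biological coefficient of variation 0.382) and Benjamini-Hochberg adjustment over all genes at 0.05. The fit sets the difference between the duplicates of a line against how far that difference varied from line to line. These p-values therefore do not measure the spread between duplicates, whose separate origin the labels do not detail. The procedure was checked on simulated counts.

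Genes were named by a rule: the 4 defining genes, the 15 protein-coding genes per direction with the largest smallest difference over the lines and at least 10 CPM on average in hypoxia, and up to 3 members per direction of each list (its most abundant member where none passed). Other genes were named after their values were seen. Not every gene that the rule names is reported here. Alternatives used DESeq2 1.42.0 and limma 3.58.1 (voom), other scalings, filters, prior counts and folds, a replicate block, and leaving out each line.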

Additional observations from a re-analysis of the deposited data

Results flagged for a closer look

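In 8 named or listed genes the A2058 pair stood at least 2-fold in 1 direction between DBP-high and DBP-low while the A375 and SKMEL-5 pairs stood at least 2-fold in the other, which is why they are given here; with 1 pair per line the difference between lines was not tested. Over all tested genes 90 were lower in A2058 and higher in A375 and SKMEL-5, and 60 the reverse. The values are log2 CPM differences, DBP-high minus DBP-low, in the order A2058, A375, SKMEL-5. The early stress gene ATF3 had -2.19, 3.87 and 3.12, and the immediate early transcription factor EGR1 had -3.22, 1.73 and 2.16. PLK3, a stress-induced kinase, had -1.83, 2.34 and 2.53. CDKN1C, which encodes the inhibitor p57, had -1.45, 1.01 and 1.22. The keratin KRT15 had -2.61, 2.498 and 2.27, and the matrix protein gene TGFBI had -1.84, 1.51 and 1.16. In the other direction, OCA2, a melanosome transporter, had 2.16, -3.18 and -3.20, and the growth factor NRG1 had 1.20, -1.51 and -1.32.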

How the results depend on the processing

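The counts of 729 higher and 972 lower genes depended on the fold required, the scaling and the lines. CPM of the library total gave 412 higher and 1471 lower genes, and library size without mitochondrial genes gave 421 and 1414; the median of all genes was then -0.32 and -0.30, against -0.08 with TMM. A 4-fold bar, stricter by construction, gave 77 and 140. Leaving out each line in turn gave 832 to 2157 higher and 1138 to 2470 lower genes, more since fewer pairs had to pass; the highest counts came without the A2058 pair (2157 and 2470), and without the SKMEL-5 pair the lower genes numbered 1511. DESeq2's size factors (799 and 875), a prior count of 0.5 (832 and 1152), no low-count filter (800 and 1017), a minimum of 1 CPM in 2 libraries (565 and 749) and A375 averaged with SKMEL-5 (951 and 1359) stayed within 1.5 times. Of 680 values of named genes under the alternatives, 661 lay within 1 SD over lines and 19 did not. Of the 624 whose mean difference was at least 2-fold, 0 changed sign. Most of these genes were named for being at least 2-fold different in the same direction in all 3 lines. For them, leaving out or averaging lines could not change the sign. Of the other 56 values, all under 2-fold, 5 changed sign, in 3 genes (ATP5F1B, MKI67 and SOX10). Of 238 list medians 215 lay within 1 SD. The medians near 0 changed sign under some alternatives: polyamine, nuclear respiratory chain, translation, MAPK, interferon, splicing, nuclear noncoding RNA, melanocytic, dedifferentiated and fibroblast lists, mitosis without SKMEL-5 and HIF targets without A2058.

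In normoxia edgeR called 0 and 0 genes. DESeq2 called 34 and 3, and no low-count filter gave 33 and 6; limma-voom, DESeq2's size factors and the 1 CPM minimum gave 0 and 0. Leaving out each line gave 6 to 1858 higher and 1 to 1274 lower genes. The highest counts came without A2058, from the A375 and SKMEL-5 pairs, which may not be independent. With the replicate block, a term for the number beside line, edgeR called 507 and 158. The numbers do not pair hypoxic with normoxic libraries by any label; differences by number in hypoxia and normoxia correlated across genes with r = -0.304 (A2058), 0.234 (A375) and 0.255 (SKMEL-5), and between different lines with r of -0.203 to 0.29. The cause of these shifts was not tested.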
